A study of Mus musculus with 18 samples.

Results

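The regions described here are stretches of accessible chromatin that lie inside exons, coding or untranslated, and away from promoters. They were taken from ATAC-seq peak lists of mouse lung endothelial cells (ECs). Peaks of all 18 lists on chromosomes 1 to 19, X and Y that shared 1 bp or more were joined into 1 region, and a region stayed if 2 or more samples had a peak there. It was taken as exonic when its midpoint fell in an exon of a curated protein-coding RefSeq transcript (NM) of GRCm38 (mm10) and lay more than 2 kb from every RefSeq transcription start site (TSS). This held for 1099 of 47338 merged regions (2.32%), of which 541 were in coding sequence, 532 in 3' untranslated regions (3' UTRs) and 26 in 5' UTRs. The other regions were 14489 within 2 kb of a TSS, 15627 intronic, 16022 intergenic and 101 in exons of noncoding transcripts.

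The lists come from ECs (CD31+, CD45-, EpCAM-, GFP-) sorted from lungs of Col1α1-GFP mice on the FVB strain, in which the collagen promoter drives GFP in fibroblasts. Mice of both sexes were used, young ones at 2 months and aged ones at 18 months of age. They received either PBS (Sham) or bleomycin at about 1 U/kg (Bleo), a drug that injures the lung and causes fibrosis, given into the trachea, and lungs were taken on day 30. There were 5 samples each of Young Sham and Aged Bleo and 4 each of Young Bleo and Aged Sham, and all mice carried the reporter. The comparisons ask how aging alters accessibility at rest, and how young and aged ECs differ from Young Sham after injury.

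ATAC-seq uses the Tn5 transposase to cut DNA that is free of nucleosomes, so a peak marks an accessible stretch in the cells studied. Most known enhancers lie in introns or between genes, but exons can also hold enhancers, binding sites of CTCF (the factor that anchors chromatin loops) or alternative promoters. In ECs many enhancers carry sites for ETS factors such as ERG, for AP-1, which responds to stress and injury, and for KLF factors, which respond to blood flow.

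The sequences below are a selection of the matches in regions that the comparisons below name, chosen with their values known, each 30 bases from the RefSeq reference genome (GRCm38), written 5′ to 3′ on the strand of the match with the motif in capitals. Both strands of the 200 bp centred on the summit of the strongest peak were searched. CTCF matches, shown here by the name of the factor, were found in regions of Chrm4 and Ppp1r13l that had no peak in any aged sample, in Ror2, which was stronger after bleomycin, in Flot1, which was weaker in Aged Bleo, and in Itpkb, which was weaker in Young Bleo.
Chrm4 (chr2:91928008-91928037, + strand): aagaaacctCCACCAGGGGGCgcttctcga
Ppp1r13l (chr7:19370242-19370271, - strand): cacccgcgcCCAGCAGAGGGCtcccgaacg
Ror2 (chr13:53109743-53109772, + strand): catcctccgCCAGCAGGGGGCtcacggagc
Flot1 (chr17:35829896-35829925, + strand): tgagcgcgcCCAGCAGGTGGCagtgcagga
Itpkb (chr1:180422304-180422333, - strand): tggcattagCCACTAGGGGGCagcaaggtc

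The ETS motif searched was CAGGAAG. It was present in the region of Tmc4, which fell most in Aged Sham among exonic regions, in Strip2 and Tgds, with no peak in Aged Sham, and in Mnt, with a peak in every Aged Bleo and no Young Sham sample.
Tmc4 (chr7:3675022-3675051, + strand): ttgagaaagagCAGGAAGcgcagcagggag
Strip2 (chr6:29953335-29953364, + strand): attcattatttCAGGAAGccggagacaata
Tgds (chr14:118112815-118112844, - strand): tgagaacaaaggCAGGAAGtggtactttgt
Mnt (chr11:74843505-74843534, + strand): ttggctgcaggCAGGAAGtcctgctgcagg

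The AP-1 motif searched was TGANTCA, which lay in 3 regions with a peak in every Young Bleo and no Young Sham sample.
Exoc1 (chr5:76540418-76540447, + strand): cactgaatgcaTGAGTCAgagctgacttga
Tbx1 1 (chr16:18581169-18581198, + strand): gagtttcaagaTGACTCAtgaccactgtca
Wdr70 (chr15:7976949-7976978, + strand): aaaaagggcttTGACTCActgtcaggttcc

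The KLF motif searched was GGGTGTG, shown for Lama5, whose coding region was stronger in Aged Bleo, and for Lamp2, whose last exon was weaker after bleomycin (log2 difference -0.39, limma adjusted p 0.033), a call lost without any 1 of 10 libraries: Young Sham 1 to 4, Young Bleo 1 or 2, Aged Sham 2 or 4, and Aged Bleo 1 or 5 (adjusted p up to 0.06).
Lama5 (chr2:180221318-180221347, + strand): cgttgctcacaGGGTGTGccttgttgctgt
Lamp2 (chrX:38402212-38402241, - strand): tcctgttgcagtGGGTGTGgccttgggctt
A match states only that these letters occur in the window, and it does not show that a factor was bound.

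Exonic regions had a median width of 377 bp (156 to 1272 bp) and lay a median of 12988 bp from the nearest TSS. They fell in 1025 genes, of which 957 held 1 region, 63 held 2 and 5 held 3 or more, numbered along the chromosome after the gene's symbol (Tbx1 1, Tbx1 2). Most were near the end of the gene: 709 of 1099 were in the last exon, among them 172 coding regions and all 532 of the 3' UTR. The exons with 3' UTR regions were long (median 2555.5 bp) and those with coding regions short (median 255 bp), so that 452 of the 3' UTR regions but only 137 of the coding regions lay within the exon over their whole width. Relative to the sequence available, exonic regions were found at 20.7 per Mb, against 17 per Mb in introns, 10.2 per Mb between genes and 139 per Mb within 2 kb of a TSS. The GENCODE annotation, which lists more transcripts than RefSeq, placed a TSS within 1 kb of 76 regions and within 200 bp of 45. The 50 regions just inside the 2 kb limit (up to 2692 bp from a TSS) had a peak in a median of 12 samples, and the 50 exonic regions just outside it (from 1448 bp) in a median of 15.

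The base composition differed between coding and 3' UTR regions. The median GC content was 58% in coding regions and 52% in 3' UTR regions. For comparison, 1 window of 200 bp was taken at the midpoint of each coding exon and 3' UTR that lay as far from a TSS. In these midpoint windows it was 49.5% and 44.5%. CpG-rich windows (over 50% GC and an observed/expected CpG ratio over 0.6) made up 33.3% of coding regions and 5.83% of 3' UTR regions. Of the midpoint windows of all coding exons and all 3' UTRs, 4.75% and 0.982% were CpG-rich. ETS matches were present in 23% of exonic regions, close to introns (26%) and intergenic regions (21.8%) and above TSS-proximal regions (11%) and all 47338 regions (19.9%). In the midpoint windows the ETS share was 9.35% for all coding exons and 7.89% for all 3' UTRs. CTCF matches were found in 10.5% of exonic regions and in 13.2% of those in 3' UTRs, against 7.60% of intronic, 10.2% of intergenic, 1.82% of TSS-proximal and 6.78% of all regions. In the midpoint windows of exons at large CTCF matches were rare, at 0.155% for coding exons and 0.209% for 3' UTRs. The rest of these exons was not searched, so these are not shares of exons that hold a match. AP-1 matches were less frequent in exonic regions (6.55%) than in introns (11.2%) or between genes (11%), with 8.63% in all regions. KLF matches were present in 8.19% of exonic and 7.45% of all regions. These shares are descriptions of the sequence and were not tested.

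**Figure D1:**
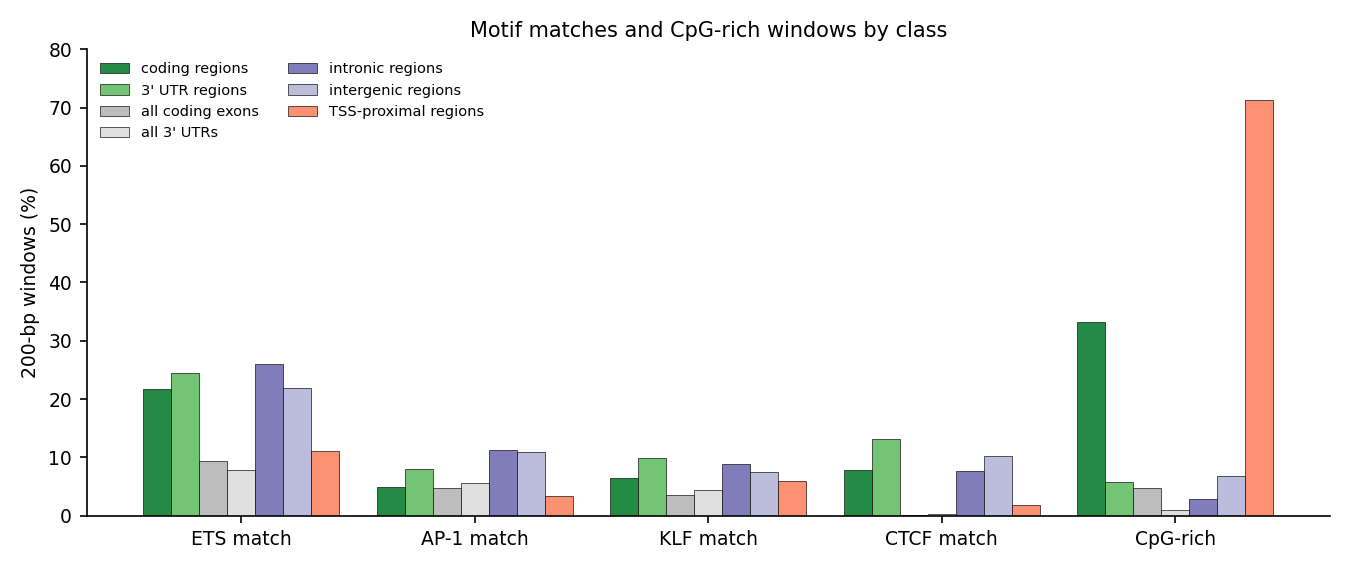
Share of 200-bp windows (%) with an ETS, AP-1, KLF or CTCF match or with a CpG-rich sequence, for coding and 3' UTR regions (green), all coding exons and all 3' UTRs over 2 kb from a TSS (grey), intronic and intergenic regions (purple) and TSS-proximal regions (orange). ETS and CTCF matches were more frequent in windows at the summits of accessible exonic regions than in windows at the midpoints of exons at large. Of coding regions 33.3% were CpG-rich.

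The lists held 21050 to 40883 peaks, 586699 in all, and were shorter in aged than in young mice on average (35239 in Young Sham, 36699 in Young Bleo, 28882 in Aged Sham and 31093 in Aged Bleo). The local background was not listed and was back-calculated from the fold enrichment and p-value of each peak, taking a value near the lowest of each list. On average it was also lower in the aged groups, at 1.16 fragments in Aged Sham and 1.21 in Aged Bleo. It was 1.56 in Young Sham and 1.65 in Young Bleo. The lists give no total read depth. By the same back-calculation the median summit of an exonic peak rested on 18 to 25 fragments, depending on the sample. By the lane codes of the lists, Aged Bleo ECs were sequenced in 1 lane with Aged Sham 4. The other Aged Sham ECs shared a lane with Young Bleo 1 to 3, and Young Sham ECs with Young Bleo 4. Age against Young Sham and lane therefore cannot be told apart. Within an age, bleomycin and lane can be told apart only through single samples, Young Bleo 4 and Aged Sham 4. A fit with lane as a term links the lanes only through these samples. As a check of the cell type, 9 of 12 endothelial markers, among them Cdh5, Kdr and Erg, had a peak within 2 kb of a TSS in all 18 samples. The others were Pecam1, with a peak in 17 samples, Tek in 15 and Emcn in 7. Of 8 leukocyte markers, 7 had no peak in any sample and Spi1 had one in 14. Foxj1 and Hopx of 7 epithelial markers, Col1a1 and Pdgfra of 6 fibroblast markers and Myh11 of 4 smooth muscle markers had a peak in every sample. Epcam, an epithelial marker that the sort excluded, had one in 9 samples, and the rest of these lists in none. Per sample, 11 to 12 endothelial markers had a peak in both young groups, 10 to 11 in Aged Sham and 9 to 12 in Aged Bleo, and 2 to 3 epithelial and 2 fibroblast markers in every group. By the study's description each sample is 1 mouse, and p-values measure the spread between these samples.

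How widely an exonic region was accessible varied from 2 samples to all 18. A peak was present in all 18 samples in 234 regions (21.3%), which was close to introns (18.7%) and intergenic regions (23.6%) and far below TSS-proximal regions (72.3%). The share was 25.1% of coding, 16.2% of 3' UTR and 46.2% of 5' UTR regions. Of the 76 regions with a GENCODE TSS within 1 kb, 27 (35.5%) had a peak everywhere. A peak was limited to 2 to 5 samples in 341 regions, and 123 of these had the minimum of 2. A peak in at least 1 sample of every group was present in 638 regions. No sample outside Young Sham had a peak in 53 regions (4.82%, against 2.47% of all regions), none outside Young Bleo in 11 (1.32% of all), none outside Aged Bleo in 9 (1.04% of all) and none outside Aged Sham in 1 (0.137% of all).

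The strongest exonic region was in the 3' UTR of Lars2 (chr9:123461804-123462251), the mitochondrial leucyl-tRNA synthetase, whose fold enrichment was at percentile 100 of every list and 43.2 to 44.8 after normalisation in Young Sham. No stretch of 20 bp around its summit, nor around that of any other exonic region, was shared with the mitochondrial genome. Next came Carns1 (chr19:4169260-4169923), the carnosine synthase, in exon 9 of 10 at a median percentile of 99, and Sptbn4 1 (chr7:27361316-27361894), a spectrin, in exon 33 of 36 at 98.8. Trim14 (chr4:46507109-46507702) was at 97.9, H2-DMa (chr17:34135230-34135887), which loads peptides on MHC class II, at 97.2 and the calpain Capn2 (chr1:182489738-182490327) at 94.8. A GENCODE TSS lay 25 bp from the region of Carns1, 70 bp from that of H2-DMa and 3 bp from that of Capn2, whereas the nearest was 12250 bp from Trim14, 16679 bp from Lars2 and 4186 bp from Sptbn4 1. The typical exonic peak was weaker, at a median percentile of 26, as in introns (26.7) and below TSS-proximal regions (69.5).

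The mean share of exonic regions with a peak was lower in the aged groups than in the young ones, as it was over all regions. It was 74.7%, 72.8%, 60.2%, 69.9% and 50.5% in the Young Sham samples and 59.3%, 75.2%, 73.6% and 57.1% in the Young Bleo samples. In Aged Sham it was 40.4%, 54.9%, 38.4% and 53.9%, and in Aged Bleo 69%, 74.2%, 47%, 27.8% and 42.5%. Means were 65.6% ± 10.1 (SD, n = 5) in Young Sham, 66.3% ± 9.39 (n = 4) in Young Bleo, 46.9% ± 8.69 (n = 4) in Aged Sham and 52.1% ± 19.3 (n = 5) in Aged Bleo. Over all regions the means were 71.9%, 75.1%, 59.2% and 62.9% in the same order, and over intronic ones 63%, 66.8%, 46.2% and 51.3%. The exonic share in Aged Sham overlapped with Young Sham only through Young Sham 5. Aged Bleo 1 and 2 lay within the range of the young samples and the other Aged Bleo samples below it. When every list was limited to its 21050 strongest peaks, which left 508 exonic regions, the means were 63.6%, 61%, 60.5% and 60.3% in the same order. Fewer cells with an open region and less accessibility per cell cannot be told apart in bulk samples.

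**Figure D2:**
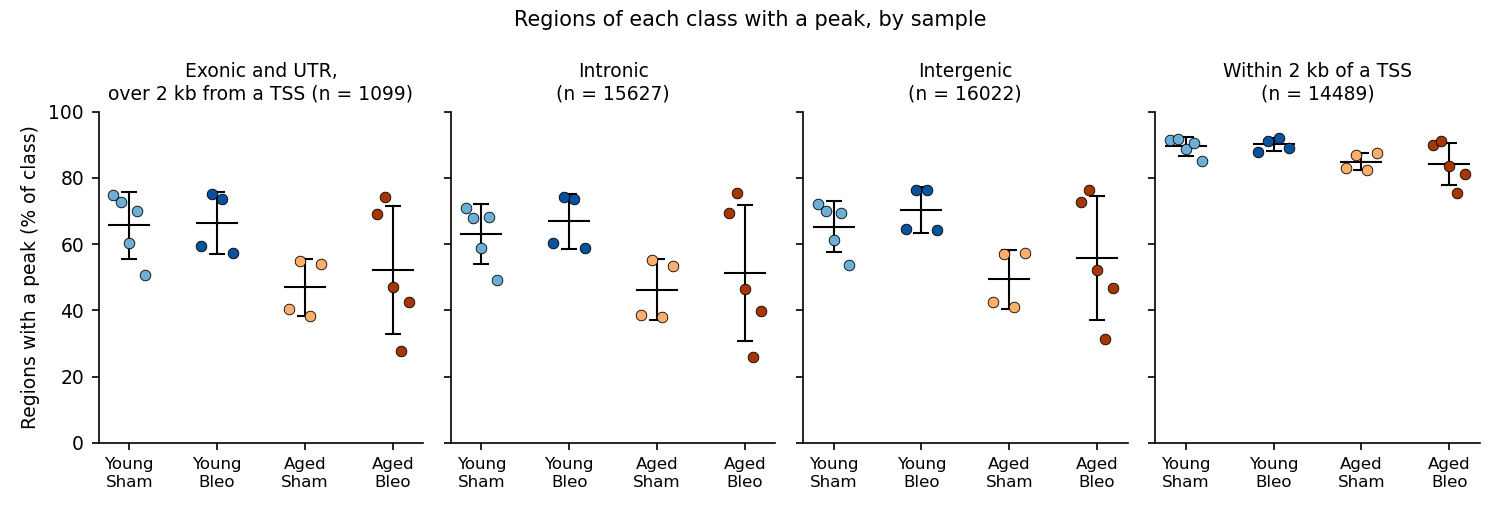
Share of regions with a peak (% of each class) in each sample, for exonic, intronic, intergenic and TSS-proximal regions. Points are samples, horizontal lines the group means and bars 1 SD, and in exonic regions the means were 65.6%, 66.3%, 46.9% and 52.1%.

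The same shares were computed for subsets of the exonic regions. Coding regions had a peak in 66.2% ± 9.28 of cases in Young Sham and 50.1% ± 8.26 in Aged Sham, and 3' UTR regions in 64.2% ± 11.1 and 42.7% ± 9.52. Regions with a CTCF match had 68.3% ± 15.4 in Young Sham, 68.9% ± 11.9 in Young Bleo, 40.4% ± 10.3 in Aged Sham and 48.2% ± 18.7 in Aged Bleo. CpG-rich regions had higher shares throughout, 78.1% ± 7.09, 72.3% ± 5.98, 63.3% ± 4.66 and 61.4% ± 13.5. In regions with an AP-1 match the share was higher in Young Bleo (64.6% ± 11.9) than in Young Sham (48.9% ± 5.50), with 42.4% ± 8.22 in Aged Sham and 50.6% ± 24.1 in Aged Bleo. There were 72 regions with this match, and the 253 with an ETS match had shares of 62.2% ± 12 in Young Sham and 62.6% ± 11 in Young Bleo. These differences between subsets were not tested.

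Each region was next compared between groups by the number of samples with a peak (two-sided Fisher's exact test, unadjusted p of at most 0.05). In Aged Sham against Young Sham, 67 exonic regions had a peak in fewer samples (4.9% of all 47338 regions did) and 4 in more (0.264% of all). Of the 67, 27 were coding, 39 in 3' UTRs and 1 in a 5' UTR. In Young Bleo against Young Sham, 26 had a peak in fewer (1.96% of all) and 39 in more samples (3.98% of all), and 27 of the 39 were in 3' UTRs. In Aged Bleo against Young Sham, 33 had a peak in fewer (3.01% of all) and 1 in more (0.201% of all). With both ages together, 13 had a peak in fewer (1.23% of all) and 25 in more (2.17% of all) of 9 Bleo than of 9 Sham samples. With both treatments together, 64 had a peak in fewer (4.87% of all) and 2 in more (0.127% of all) of 9 aged than of 9 young samples. As shares of the 1099 exonic regions these counts were 6.1%, 0.364%, 2.37%, 3.55%, 3.0%, 0.091%, 1.18%, 2.27%, 5.82% and 0.182%, and most lay near those over all regions. A region was kept with a peak in at least 2 samples, so one whose peaks all lie on 1 side of a comparison was kept through that side, and its difference is a description only.

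No region passed after Benjamini-Hochberg adjustment over all 47338 regions in Fisher's exact test. The smallest adjusted p of an exonic region was 0.786 in Aged Sham, 0.535 in Young Bleo, 1.0 in Aged Bleo, 0.927 for bleomycin and 0.229 for age, and 4 against 5 samples cannot give an unadjusted p below 0.00794. By limma on the percentile of fold enrichment within each list, with 0 where there was no peak, 27, 29, 67, 23 and 88 exonic regions passed at an adjusted p of at most 0.05 in the same order. These were 2.46%, 2.64%, 6.1%, 2.09% and 8.01% of the exonic regions, against 2.7%, 3.38%, 5.97%, 3.04% and 7.2% of all regions. With the same number of peaks in every list the excess of lower counts in aged ECs was smaller or gone. In Aged Sham 11 of the 508 exonic regions left then had a peak in fewer (1.56% of all 27849 regions) and 5 in more samples (1.36% of all), in Aged Bleo 18 (1.97% of all) and 5 (1.09% of all), and in all aged against all young samples 7 (1.01% of all) and 7 (0.855% of all). In Young Bleo the counts were 22 (3.19% of all) and 23 (3.66% of all). For bleomycin with both ages pooled they turned to 22 fewer (2.43% of all) and 13 more (2.01% of all), and the split over all regions turned as well.

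**Figure D3:**
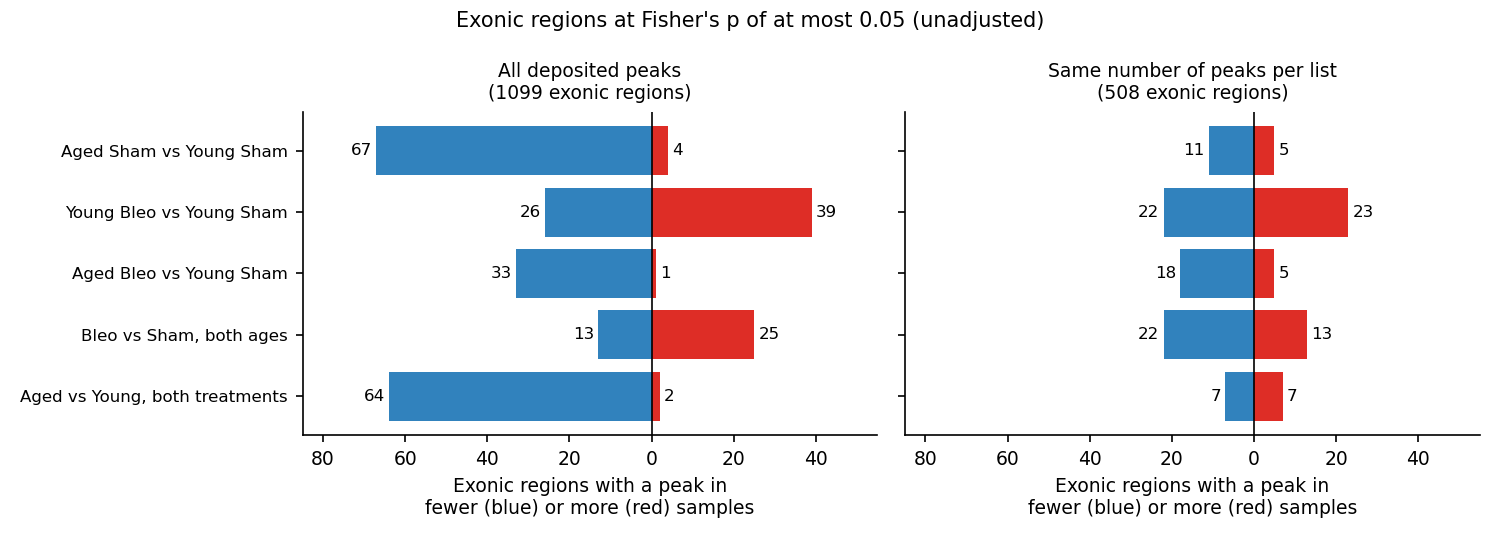
Numbers of exonic regions with a peak in fewer (blue) or more (red) samples at an unadjusted Fisher's p of at most 0.05, in 5 comparisons, with all deposited peaks (left, 1099 regions) and with the same number of peaks per list (right, 508 regions). The 67 to 4 and 64 to 2 splits in aged ECs with all peaks became 11 to 5 and 7 to 7 with equal lists.

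In 12 exonic regions (1.09%) every Young Sham and no Aged Sham sample had a peak, a share near the 0.972% of all regions that separated in this way. They lay in Chrm4, Strip2, D6Wsu163e, Ppp1r13l, B3gnt6, Fam53b 1, Cyb5b, Ltf, Tgds, Tbx1 2, Dscam and Vwce. Each of these had an unadjusted p of 0.00794 (Fisher's exact test, adjusted p 0.786). The 3' UTR region of Cyb5b (chr8:107185076-107185442), a cytochrome b5 of the outer mitochondrial membrane, had a peak in 5 of 5 Young Sham and in 0 of 13 other samples. It was thus kept as a region through Young Sham alone, and its lower count in the other groups is a description only. In Young Sham its peaks were at percentiles 32.2 to 56.6 of their lists.

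Chrm4 (chr2:91927907-91928238), the muscarinic M4 receptor, had a peak in its coding exon in 5 of 5 Young Sham, 3 of 4 Young Bleo and 0 of 9 aged samples, and was thus kept through young samples alone. Its Young Sham peaks were at percentiles 7.13 to 38, and a GENCODE TSS lay 823 bp from it. Ppp1r13l (chr7:19369996-19370404), an inhibitor of p53, had 5 of 5, 2 of 4, 0 of 4 and 0 of 5 in the order Young Sham, Young Bleo, then Aged Sham and last Aged Bleo. The 3' UTR of the iron-binding lactotransferrin Ltf (chr9:111042169-111042631) had 5, 4, 0 and 1. Strip2 (chr6:29953167-29953581), of the striatin complex, had 5, 2, 0 and 1, and Tgds (chr14:118112745-118113059) 5, 1, 0 and 3. A coding region of Adgra2 (chr8:27113134-27113475), a receptor for brain angiogenesis that takes part in Wnt signalling, had 5 and 4 in the young and 1 and 1 in the aged groups (p = 0.00226 for age, Fisher's exact test). Chrm4, Ppp1r13l, Ltf, Strip2, Tgds and Adgra2 thus had a peak in at least 1 Young Bleo sample.

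In Aged Bleo 8 regions had no peak where every Young Sham sample had one (0.728%, against 0.661% of all regions), in Chrm4, Elovl6 2, Klf4, Cdk5rap2, D6Wsu163e, Ppp1r13l, Cyb5b and Cdc6 2, so that Chrm4, D6Wsu163e, Ppp1r13l and Cyb5b had no peak in any aged sample.

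At the threshold, 4 exonic regions had a peak in more Aged Sham than Young Sham samples, all in 3' UTRs and all at an unadjusted p of 0.0476 (Fisher's exact test). Prelp (chr1:133911489-133911813), a small proteoglycan that binds basement membranes to connective tissue, had 1 of 5 in Young Sham, 4 of 4 in Young Bleo, 4 of 4 in Aged Sham and 3 of 5 in Aged Bleo. Vgll4 1 (chr6:114861042-114861394), whose protein competes with YAP for TEAD factors, had 1, 3, 4 and 2 in the same order. Zfp773 (chr7:7130763-7131053) had 0, 3, 3 and 2. Sectm1b (chr11:121053619-121053867) had 0, 1, 3 and 3 and was also higher with both treatments together (6 of 9 against 1 of 9, p = 0.0498, Fisher's exact test). A coding region of the separase gene Espl1 (chr15:102315193-102315553) had peaks in 5 of 9 aged and 0 of 9 young samples, and was kept through aged samples alone. Peaks of Prelp and Zfp773 were thus also more frequent in Young Bleo, where both had an unadjusted p of 0.0476 (Fisher's exact test).

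In 8 exonic regions (0.728%, against 0.473% of all regions) every Young Sham and no Young Bleo sample had a peak, in Dnah7a, Adamtsl4, Elovl6 2, Gbp7, Apbb2, Fam53b 1, Mast3 and Cyb5b. In 6 (0.546%, against 1.01% of all regions) the reverse held, in Wt1, Exoc1, Bcl9l 2, Btd, Wdr70 and Tbx1 1, and each of the 14 had p = 0.00794 (Fisher's exact test, adjusted p 0.535). Dnah7a (chr1:53629971-53630505), an axonemal dynein, had no peak in Young Bleo, with 5 of 5 in Young Sham, 0 of 4 in Young Bleo, 4 of 4 in Aged Sham and 4 of 5 in Aged Bleo. Mast3 (chr8:70787980-70788427), a kinase, had 5, 0, 4 and 2, and Apbb2 (chr5:66302144-66302480) 5, 0, 3 and 2. The 3' UTR region Elovl6 2 (chr3:129634434-129634853), in a fatty acid elongase, had a peak in 8 of 9 Sham and in 0 of 9 Bleo samples, and was kept through Sham samples alone. Gbp7 (chr3:142546796-142547261), an interferon-induced GTPase, had 5, 0, 1 and 2, with a GENCODE TSS 854 bp away. Fmo2 (chr1:162875087-162875536), a monooxygenase of the lung, had 5, 1, 3 and 1.

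Of the 39 regions with a peak in more Young Bleo than Young Sham samples, 37 (94.9%, against 88% of all such regions) had a peak in at least 1 Aged Bleo and 20 (51.3%, against 43.8%) in at least 1 Aged Sham sample. Of those given here, Bcl9l 2, Gramd4 and Mrtfb, and Exoc1 in part, were named through the comparison of all Bleo with all Sham samples, which favours peaks in Aged Bleo. Exoc1 (chr5:76540142-76540626), a subunit of the exocyst, had a peak in 0 of 5 Young Sham, 4 of 4 Young Bleo, 0 of 4 Aged Sham and 2 of 5 samples of Aged Bleo, at percentiles of 37.1 to 73.5 in Young Bleo and 68.7 and 69.5 in Aged Bleo. Bcl9l 2 (chr9:44511119-44511678), a coactivator of β-catenin, had 0, 4, 0 and 2, and Wt1 (chr2:105172456-105172931), a transcription factor, 0, 4, 1 and 2. Tbx1 1 (chr16:18580938-18581541), a T-box factor, had 0, 4, 1 and 3, and Wdr70 (chr15:7976838-7977100) 0, 4, 1 and 2. Gramd4 (chr15:86135314-86135611) had 0, 3, 0 and 3, and Mrtfb (chr16:13416503-13416838), a coactivator of serum response factor, 1, 4, 0 and 3. For Exoc1, Bcl9l 2 and Gramd4 the count was 6 of 9 Bleo against 0 of 9 Sham samples, and Bleo samples alone had kept them as regions. All 7 of these regions had a peak in Aged Bleo 1 and 2, which had the highest shares of exonic regions with a peak in their group, and Exoc1, Wt1, Bcl9l 2 and Wdr70 had one in no other Aged Bleo sample. The single region called with a peak in more Aged Bleo than Young Sham samples (complete separation held in 0.0275% of all regions) was in the 3' UTR of Mnt (chr11:74843348-74843670), a repressor that binds MAX, with 0, 3, 2 and 5 at percentiles of 0.577 to 42.3 (median 2.72) in Aged Bleo.

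**Figure D4:**
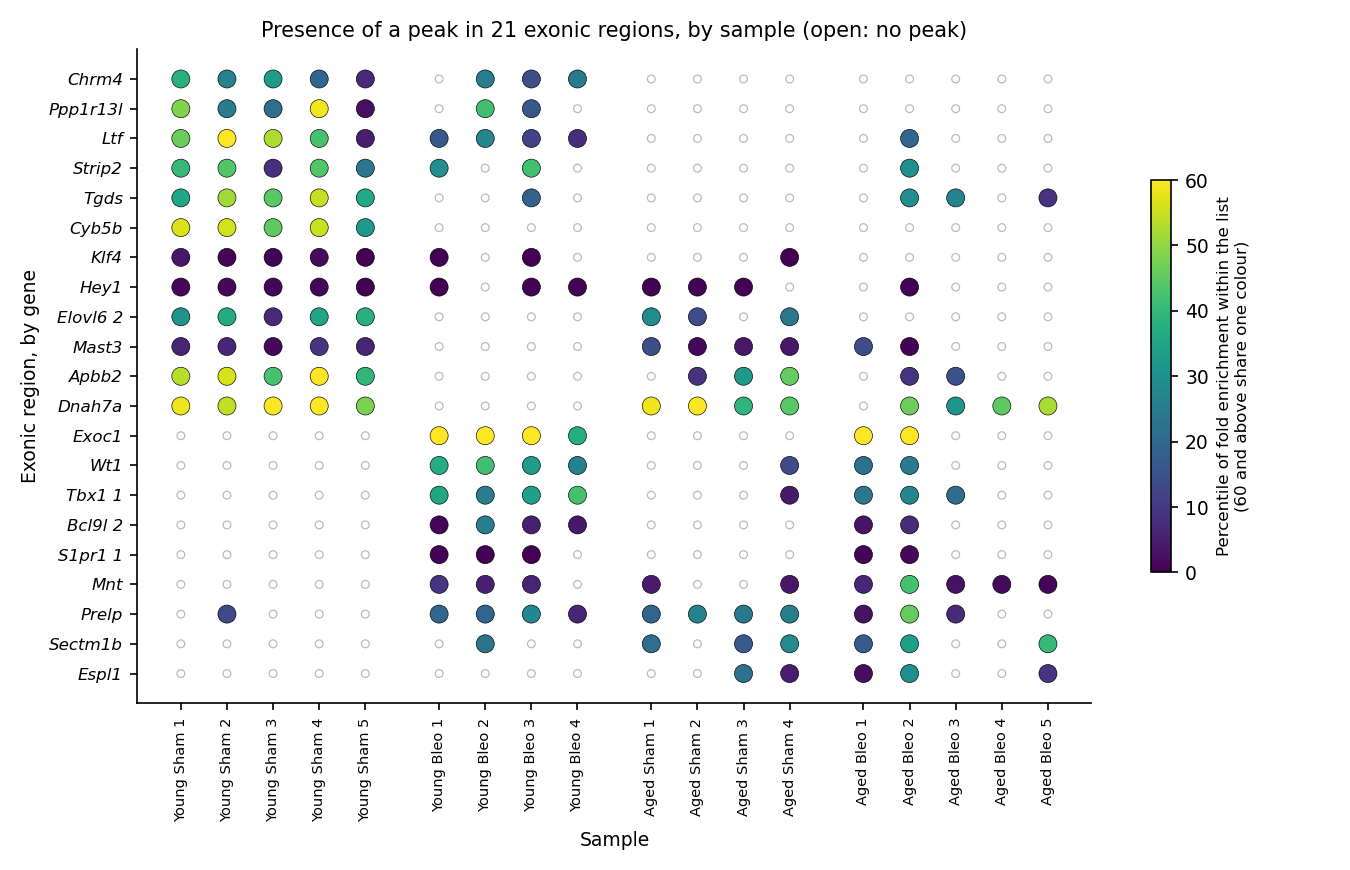
Peaks in 21 exonic regions (rows) in the 18 samples (columns), with filled circles coloured by the percentile of the peak's fold enrichment within its list and small open circles for no peak. The upper rows had fewer peaks in aged or injured ECs, as in Chrm4 with 0 of 9 aged samples. The lower rows had more, as in Exoc1 with 4 of 4 Young Bleo samples. Chrm4 was kept as a region through young samples alone and Exoc1 through Bleo samples alone, so their differences are a description only.

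Values within a lane are given where a lane held both sides, and since the regions were called on these same samples, their direction within a lane is no separate evidence. In the lane with Aged Sham 1 to 3 and Young Bleo 1 to 3, age and bleomycin changed together and cannot be told apart. There, 62 of the 64 regions lower with age had a peak in fewer aged samples and 2 in equally many. Among all exonic regions 541 had fewer, 492 equally many and 66 more. In the lane with Young Bleo 4 and the 5 Young Sham samples, Young Bleo 4 lacked a peak in all 26 regions lower in Young Bleo and had one in 21 of the 39 regions higher. Over all exonic regions the share of samples with a peak in that lane was smaller in Young Bleo 4 for 364, equal for 528 and larger for 207. In the lane of the Aged Bleo samples, 18 of the 25 regions higher after bleomycin had a larger share of peaks in Aged Bleo than in Aged Sham 4, and 7 of the 13 lower ones a smaller share, with 347 larger and 332 smaller over all exonic regions. For the same 25 and 13 regions, the lane of Young Bleo 1 to 3 and Aged Sham 1 to 3 had 25 larger and 11 smaller in Bleo. Over all exonic regions that lane had 541 larger and 66 smaller. These are the same samples and the same difference as given above for age. In the lane of Young Bleo 4, 11 of the 25 were larger and 1 smaller, and all 13 lower ones were smaller.

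Strength was compared over the 17432 regions with a peak in all 18 samples, 234 of them exonic (136 coding, 86 in 3' UTRs and 12 in 5' UTRs). Fold enrichment, which divides the fragments at the summit by those of the local background, was brought to a common distribution across samples by quantile normalisation and tested with limma, with a Benjamini-Hochberg adjusted p of at most 0.05 over all 17432 regions. Against Young Sham, 2 exonic regions fell in Aged Sham (0.826% of all) and 0 rose (0.66% of all), although 44 (18.8%, against 15.8% of all) had an unadjusted p under 0.05. In Young Bleo 4 fell (1.94% of all) and 5 rose (1.57% of all). In Aged Bleo 10 fell (5.58% of all) and 12 rose (5.43% of all). For bleomycin with both ages pooled 4 fell (4.15% of all) and 13 rose (3.46% of all), and for age in both treatments 11 fell (2.42% of all) and 3 rose (1.6% of all).

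In all, 41 of the 234 exonic regions (17.5%, against 16.9% of all regions) were called in at least 1 comparison, 19 coding, 20 in 3' UTRs and 2 in 5' UTRs, and 17 in at least 2, which share samples. Median log2 differences over the 234 were small, -0.06 in Aged Sham, 0.021 in Young Bleo, -0.037 in Aged Bleo, 0.024 for bleomycin and -0.054 for age, against 0.011, -0.001, 0.007, 0.002 and 0.009 over all regions. The difference of the bleomycin response between the ages was called in no exonic region by limma (14 of 234 at an unadjusted p under 0.05, against 1628 of all 17432 regions, of which 0 were called, smallest adjusted p 0.24 in exonic regions). With lane as a term in the limma fit no region of any class was called, and 24, 17, 13, 20 and 30 exonic regions had an unadjusted p under 0.05 (10.3%, 7.26%, 5.56%, 8.55% and 12.8%, against 7.38%, 7.03%, 7.56%, 8.16% and 11.8% of all regions). Within a lane, with 1 to 5 samples a side, the direction was the same in 9 of 9 regions called in Young Bleo. It was the same in 16, 17 and 17 of 17 called for bleomycin in the 3 lanes and in 14 of 14 called for age. These samples also made the calls. The lane used for age, also 1 of the 3 for bleomycin, held only Aged Sham 1 to 3 and Young Bleo 1 to 3. Age and bleomycin cannot be told apart there.

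Tmc4 (chr7:3674838-3675309), a transmembrane channel-like protein, fell most with age, in exon 4 of 15. The Tmc4 region had normalised fold enrichments of 12.6, 11, 10.1, 13.3 and 13.5 in Young Sham, 12.6, 13, 14.5 and 10.6 in Young Bleo, 7.47, 7.52, 7.18 and 5.97 in Aged Sham and 9.18, 8.91, 7.92, 10.3 and 6.89 in Aged Bleo. Every aged sample but Aged Bleo 4, at 10.3, was below every young sample, the lowest of which was 10.1. The log2 difference was -0.78 (SE 0.14, limma adjusted p 0.0067) in Aged Sham and -0.67 (SE 0.1, adjusted p 0.00038) for age in both treatments. In Aged Bleo against Young Sham it was -0.49 (SE 0.13, adjusted p 0.018), a call that was lost without Young Sham 4 or Aged Bleo 5 (adjusted p up to 0.054).

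Flot1 (chr17:35829712-35830173), which encodes flotillin of membrane microdomains, fell in exon 9 of 13 in Aged Bleo and with age in both treatments together. The Flot1 region had normalised fold enrichments of 12, 13.9, 11.3, 13.2 and 10.8 in Young Sham, 11.4, 9.05, 10.1 and 11.3 in Young Bleo, 7.47, 11.3, 8.42 and 8.06 in Aged Sham and 6.95, 8.03, 7.2, 6.58 and 7.58 in Aged Bleo. All 5 Aged Bleo samples were below all Young Sham samples, by a log2 difference of -0.75 (SE 0.13, limma adjusted p 0.00068). The difference for age in both treatments was -0.51 (SE 0.09, adjusted p 0.0057). Aged Sham overlapped with Young Sham and did not pass (-0.49, SE 0.13, limma adjusted p 0.06).

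Ackr4 (chr9:104098253-104098710), an atypical receptor that removes chemokines, fell in its 3' UTR in Aged Bleo. The Ackr4 region had normalised fold enrichments of 12.9, 13.6, 15.2, 13.3 and 16 in Young Sham, 13.9, 12.1, 12.3 and 13.1 in Young Bleo, 10.2, 12.7, 14.4 and 10.2 in Aged Sham and 10.3, 9.32, 11.1, 8.72 and 10.5 in Aged Bleo. Aged Bleo did not overlap with Young Sham, and the log2 difference was -0.51 (SE 0.11, limma adjusted p 0.0062). Aged Sham lay between them and overlapped with both.

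Rtn2 (chr7:19295731-19296160), a reticulon, was the other region called in Aged Sham, by -0.69 on the log2 scale (SE 0.17, limma adjusted p 0.036). The Rtn2 region had normalised fold enrichments of 16.7, 12.7, 9.48, 13.3 and 10.3 in Young Sham, 11.8, 11, 13.9 and 10 in Young Bleo, 9.06, 8.43, 5.58 and 7.91 in Aged Sham and 11.7, 12.4, 8.35, 9.8 and 10 in Aged Bleo. Young Sham and Aged Sham did not overlap, but the call was lost (adjusted p up to 0.13) without any of Young Sham 1, 2 or 4 or Aged Sham 2, 3 or 4.

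Ror2 (chr13:53109506-53109953), a receptor tyrosine kinase for Wnt5a, rose in its last exon, most of all exonic regions in Young Bleo and with both ages pooled. In Aged Bleo against Young Sham, Krt88 (log2 difference 0.79) and Lama5 (0.62) rose more. The Ror2 region had normalised fold enrichments of 7.76, 8.7, 11.7, 6.24 and 8.66 in Young Sham, 18.6, 15, 15.1 and 12 in Young Bleo, 9.16, 9.15, 7.18 and 9.6 in Aged Sham and 12, 13.8, 13.9, 11 and 13 in Aged Bleo. All Bleo samples but Aged Bleo 4, at 11, were above the highest Sham sample, 11.7 in Young Sham 3. The log2 difference was 0.83 (SE 0.15, limma adjusted p 0.0026) in Young Bleo and 0.59 (SE 0.15, adjusted p 0.012) in Aged Bleo, both against Young Sham, and 0.69 (SE 0.11, adjusted p 0.0005) for bleomycin with both ages pooled. With lane as a term the Aged Bleo difference was -0.02 (limma adjusted p 0.992).

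Ednrb, the endothelin B receptor of lung capillaries, held 2 regions in its 3' UTR, and Ednrb 1 (chr14:103815480-103816085) rose with bleomycin when both ages were pooled. The Ednrb 1 region had normalised fold enrichments of 13.4, 8.9, 10.3, 9.48 and 9.94 in Young Sham, 16.7, 15.1, 14 and 12.5 in Young Bleo, 10.5, 12.1, 12.1 and 12.6 in Aged Sham and 15.9, 16.3, 14.7, 12.2 and 15.1 in Aged Bleo. The Bleo samples ranged from 12.2 to 16.7 and the Sham samples from 8.9 to 13.4, and the log2 difference was 0.41 (SE 0.09, limma adjusted p 0.0053). Against Young Sham it was 0.52 (SE 0.12, limma adjusted p 0.0064) in Aged Bleo, which holds the age difference too (0.2 in Aged Sham, limma adjusted p 0.46), and 0.5 (SE 0.12, adjusted p 0.023) in Young Bleo, the last lost without Young Sham 2 or 4 or Young Bleo 1 or 2 (adjusted p up to 0.11).

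Prkce (chr17:86476578-86477144), the epsilon form of protein kinase C, fell after bleomycin in exon 5 of 15. The Prkce region had normalised fold enrichments of 18.4, 18.5, 16.2, 17.9 and 15.3 in Young Sham, 12.7, 12.3, 11.6 and 15 in Young Bleo, 18.1, 15.8, 16.8 and 16.8 in Aged Sham and 10.2, 13.5, 13.4, 15 and 12.5 in Aged Bleo. The 9 Sham samples lay at 15.3 or above and the 9 Bleo samples at 15 or below, with a log2 difference of -0.41 (SE 0.07, limma adjusted p 0.0014). In Aged Bleo against Young Sham it was -0.43 (SE 0.1, adjusted p 0.008). The Young Bleo difference of -0.42 (SE 0.11, adjusted p 0.023) was lost without any of Young Sham 1, 2 or 4 or Young Bleo 1, 2 or 3 (adjusted p up to 0.084).

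Lama5 (chr2:180221064-180221463), the laminin chain α5 of endothelial basement membranes, rose in exon 2 of 79 in Aged Bleo. The Lama5 region had normalised fold enrichments of 6.14, 4.9, 3.73, 4.59 and 6.23 in Young Sham, 6.65, 6.89, 5.48 and 6.03 in Young Bleo, 6.0, 7.75, 6.12 and 5.07 in Aged Sham and 7.98, 8.02, 6.46, 7.16 and 9.44 in Aged Bleo. Every Aged Bleo sample was above every Young Sham sample, by a log2 difference of 0.62 (SE 0.14, limma adjusted p 0.0076). That difference holds age and bleomycin together. In the other comparisons Lama5 was not called by limma. There the log2 differences were 0.29 in Aged Sham, 0.31 in Young Bleo, 0.32 for bleomycin and 0.3 for age. The Lama5 region was among the weaker ones, with fold enrichments of at most 9.44.

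S1pr3 (chr13:51418509-51418999), a sphingosine-1-phosphate receptor, was accessible in a 5' UTR exon 68 bp from a GENCODE TSS. The S1pr3 region had normalised fold enrichments of 11.5, 13.3, 9.73, 12.9 and 9.53 in Young Sham, 14.1, 15.9, 11.7 and 14.2 in Young Bleo, 7.47, 4.89, 10.4 and 8.82 in Aged Sham and 10.4, 13.3, 10.8, 13 and 11.2 in Aged Bleo. The difference for bleomycin was 0.46 (SE 0.12, limma adjusted p 0.018), and the aged samples were lower, with a median of 10.4 against 12.9 in the young ones. The lowest values were those of Aged Sham 1 and 2. Means were 11.4 ± 1.75 in Young Sham, 14 ± 1.72 in Young Bleo, 7.89 ± 2.33 in Aged Sham and 11.7 ± 1.33 in Aged Bleo.

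**Figure D5:**
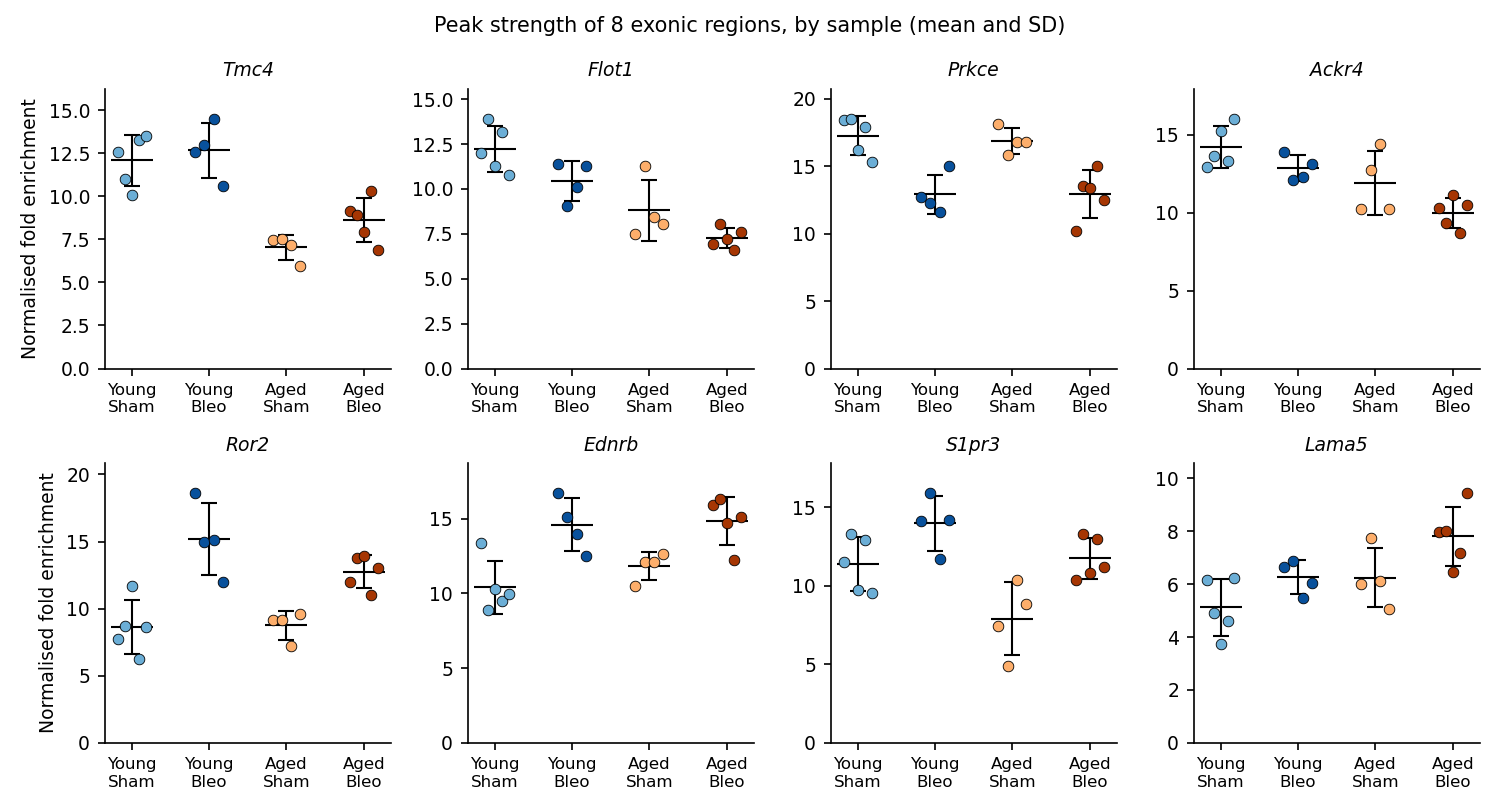
Normalised fold enrichment (linear axis from 0) of 8 exonic regions in each sample, with points for samples, horizontal lines for group means and bars of 1 SD. Tmc4, Flot1 and Ackr4 were lower in Aged Bleo than in Young Sham, Prkce was lower and Ror2 and Ednrb (region 1) higher in Bleo than in Sham samples with both ages pooled, S1pr3 was lowest in Aged Sham, and Lama5 was highest in Aged Bleo.

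Further regions rose in Aged Bleo, after bleomycin or with age. The coding region of the keratin gene Krt88 had means of 7.35 ± 1.14 in Young Sham and 12.6 ± 1.39 in Aged Bleo (log2 difference 0.79, SE 0.19, limma adjusted p 0.0091). Its mean in Aged Sham was 10.6 ± 3.39. Krt88 was called for age (0.5, SE 0.14, adjusted p 0.042) and not for bleomycin (0.28, adjusted p 0.22). The age call was lost without any 1 of 12 libraries (adjusted p up to 0.088). The 3' UTR region of Ak1, an adenylate kinase, had 6.33 ± 0.725 in Young Sham, 7.79 ± 0.938 in Aged Sham and 9.27 ± 1.2 in Aged Bleo (0.55 for Aged Bleo, SE 0.13, adjusted p 0.0075). In Fam53b 3 the Sham samples lay between 6.72 and 9.35 and the Bleo samples between 7.99 and 13.3 (0.45, SE 0.11, adjusted p 0.013). The other regions of Fam53b behaved differently: Fam53b 1, in the same 3' UTR, had a peak in 5 samples of Young Sham, 0 of Young Bleo, 0 of Aged Sham and 1 of Aged Bleo, and Fam53b 2 in 4, 0, 0 and 1. By strength 3 exonic regions rose with age in both treatments (1.6% of all). These were Krt88, Cyren (0.25, SE 0.07, limma adjusted p 0.046) and Kank3 (0.17, SE 0.05, adjusted p 0.044). The calls of Cyren and Kank3 were lost without any 1 of 14 and of 13 libraries (adjusted p up to 0.093 and 0.089). Cyren was also lower after bleomycin with both ages pooled (-0.28, SE 0.07, limma adjusted p 0.015).

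In young ECs after bleomycin, Chmp4c, a subunit of the ESCRT-III complex, fell in its 3' UTR from 16 ± 2.08 to 8.68 ± 2.16 (log2 difference -0.91, SE 0.21, limma adjusted p 0.016), which was lost without Young Bleo 2 (adjusted p 0.075). The 3' UTR region of Slc38a9, an arginine sensor of the lysosome, fell from 13.7 ± 1.8 to 9.14 ± 2.05 (-0.6, SE 0.17, adjusted p 0.043), and that of Itpkb, an inositol trisphosphate kinase, from 11.9 ± 1.2 to 8.61 ± 0.631 (-0.47, SE 0.13, adjusted p 0.035). Slc13a4, a sulphate transporter, rose from 11.7 ± 1.71 to 17.2 ± 1.38 (0.56, SE 0.16, adjusted p 0.05). The last 3 calls were lost when single libraries were left out: Slc38a9 without any of Young Sham 1 to 4 or Young Bleo 1, 2 or 4 (adjusted p up to 0.13), Itpkb without any of Young Sham 1 to 3 or Young Bleo 1 to 4 (up to 0.12), and Slc13a4 without any of Young Sham 2 to 5 or Young Bleo 1 to 4 (up to 0.14).

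Genes of endothelial identity were the best represented of the pathways examined, with 25 exonic regions in 18 of 53 listed genes. A peak was present in all 18 samples in the exonic regions of Nos3, the endothelial nitric oxide synthase, of Kdr, the main VEGF receptor, of Vwf and in both of Ednrb. Regions of Aplnr, Tal1, Kit, Gata2 1 and Plvap 2 had a peak in 17 samples. In 4 of these genes 1 region each was called by presence at an unadjusted p, where 13.2% of all regions were called in at least 1 of the 5 comparisons, and none passed adjustment. Klf4 (chr4:55530267-55530558), a factor induced by shear stress, had a peak in 5 samples of Young Sham, 2 of Young Bleo, 1 of Aged Sham and 0 of Aged Bleo (p = 0.00794 in Aged Bleo, Fisher's exact test). Hey1 (chr3:8664605-8664905), a target of Notch, had 5, 3, 3 and 1, and Efnb2 (chr8:8620588-8620866), the ephrin of arteries, 4, 1, 0 and 1. S1pr1 1 (chr3:115711468-115711697), in the receptor that maintains the endothelial barrier, had 0, 3, 0 and 2. These peaks were weak, as those of Klf4 were at percentiles of 3.37 or below and those of Hey1 and S1pr1 1 at 1.2 or below. The regions of Klf4 and Hey1 lay close to the 2 kb limit, at 2063 and 2283 bp from a RefSeq TSS.

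The other lists held few exonic regions. Of 46 basement membrane and matrix genes, Lama5 and Ltbp4 held 1 each, and Lama5 was called as above. Of 40 genes of Notch, BMP and TGF-β signalling, 7 held a region (Notch2, Notch3, Ski, Smad1, Smad7, Tgfbr2 and Tgfbr3) and none was called in any comparison by Fisher's exact test at an unadjusted p of at most 0.05, nor by limma, which tested none of them because none had a peak in all 18 samples. Of 29 AP-1 and stress genes, Fosb, Maff and Tnfaip3 held a region and none was called by presence, with Fosb at 3, 0, 0 and 0. By strength only Maff was tested, and it was not called by limma. Of 44 cytoskeleton genes 10 held a region, and that of Actn1 (chr12:80168194-80168654), α-actinin, had a peak in 9 of 9 young and 4 of 9 aged samples (p = 0.0294, Fisher's exact test). Regions of Itga1, Myh9, Plec, Vasp and Vcl had a peak in all 18 samples. No collagen and no clustered protocadherin gene held an exonic region, 1 Hox gene did (Hoxb8), and 15 zinc finger genes held 16, of which 3 were called by presence at an unadjusted p in at least 1 comparison (13.2% of all regions were).

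In the genes with most exonic regions, the regions of 1 gene often had peaks in different numbers of samples. Rptor, the scaffold of the mTORC1 kinase, had 4: its 3' UTR region Rptor 4 (chr11:119898485-119899286) had a peak in all 18 samples, whereas Rptor 1 and Rptor 2 had a peak in 2 and Rptor 3 in 5. Dgki, a diacylglycerol kinase, had 3: Dgki 1 in the 3' UTR had a peak in 15 samples, Dgki 2 in 9 and Dgki 3 in 16. The peaks of Dgki 1 were in 5 of 5 Young Sham, 4 of 4 Young Bleo, 3 of 4 Aged Sham and 3 of 5 Aged Bleo samples. Mindy4 3 and Srcin1 3 had a peak in every sample, while Mindy4 1, in the same gene as the former, had a peak in 3 samples.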

How the data were processed

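ATAC-seq peak lists of lung ECs from 18 mice were used as deposited. The authors aligned reads to mm10 with BWA, marked duplicates with Picard and ran MACS2 on every sample separately at a false discovery rate of 1%. The deposited lists hold a fold enrichment (a ratio of summit to local background), −log10 p-values and q-values, and a score, which was not used. The lists hold no read counts, so the authors' count-based comparison was not repeated. No sample was pooled or imputed, and 19 mitochondrial peaks were left out.

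Regions were built and annotated as described above with RefSeq on GRCm38.p6. Presence was compared by two-sided Fisher's exact test, and strength by limma 3.58.1 (R 4.3.3) on log2 fold enrichment after quantile normalisation, with all 4 groups in the fit and Benjamini-Hochberg adjustment over all regions tested. Other steps used Python 3.11.15, scipy 1.17.1 and pandas 2.3.3. Each test was tested on simulated data. Strength needs a peak in all 18 samples, so regions absent from any sample did not enter it.

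Regions were named by rule: the 4 with the smallest p in each direction of each presence comparison, the 4 called with the largest difference in each direction of each strength comparison, the 6 strongest, those of the 5 genes with most regions, and those of the gene lists called in any comparison. Other names complete a count given in full. Some regions met the rule and are not described above: Iqcj (lower in Aged Bleo), Pard6g (lower with age), Synpo (lower after bleomycin) and 1810010H24Rik (higher in Young Bleo). Each of these calls was lost when some single libraries were left out. Several regions of the genes with most regions are not described either. The members and the gene lists were chosen with earlier results of these data known. Alternatives were a stricter q, the same number of peaks in every list, a covered share of 50%, 3 samples, 5 kb from a TSS, predicted TSSs, limma on percentiles, another scaling, lane as a term, a replicate block and leaving out each library.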

Additional observations from a re-analysis of the deposited data

Results flagged for a closer look

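The normalised fold enrichment of Lamp2, a lysosomal membrane protein, in its last exon was 16.7 in Young Sham 5, against 21.8 to 23.5 in the other Young Sham samples. The gap was 0.749 of the range of the group, above the limit of 0.71 for 5 samples. This was 1 of 96 groups of values examined, and chance marks about 1 in 20 groups.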

How the results depend on the processing

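Counts are given as regions with fewer or lower, then more or higher values. With the same number of peaks in every list, presence gave 11 lower regions in Aged Sham, 23 higher in Young Bleo, 18 and 5 in Aged Bleo, 22 and 13 for bleomycin, and 7 and 7 for age, and the share in Aged Sham was 60.5%. In these lists 157 exonic regions had a peak in all samples, against 234 with all peaks. Among them strength gave 1 lower in Aged Sham, 2 and 3 in Young Bleo, 2 lower for bleomycin, and 7 and 1 for age. With regions at least 50% covered, presence gave 73 lower in Aged Bleo, and 118 and 1 for age, and the share in Aged Sham was 38.1%. For bleomycin it gave 23 and 20, so that the split turned from the 13 and 25 of the main setting. With −log10 q of at least 5, 1 region was higher with age. Beyond 5 kb from a TSS, strength gave 0 lower in Aged Sham, 7 higher in Aged Bleo, 2 lower for bleomycin and 7 lower for age. Centred on the list median it gave 1 and 2 in Young Bleo and 2 lower for bleomycin, and in the 395 exonic regions with a peak in every sample of both groups 16 and 12 in Young Bleo. With lane as a term it gave 0 in every comparison and direction, and Ror2 in Aged Bleo turned to -0.0221 (limma adjusted p 0.992). The causes were not tested.

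By limma on percentiles at an unadjusted p of at most 0.05, presence gave 248 lower in Aged Sham, 86 and 80 in Young Bleo, 225 and 22 in Aged Bleo, 58 and 100 for bleomycin, and 299 and 7 for age. The replicate numbers did not pair the samples: deviations of 25 same-numbered pairs correlated at a median of 0.032 (-0.183 to 0.299), 3 were over 0.1, and 4 of 18 samples were closest to their own number. With the replicate block the same limma gave 288 and 2, 105 and 67, 224 and 26, 55 and 103, and 302 and 6, and strength with the block gave 4 lower in Aged Sham.

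Leaving out 1 library gave, for presence, 13 to 29 and 0 to 1 in Aged Sham, 8 to 16 and 6 to 24 in Young Bleo, 34 to 77 and 1 to 16 in Aged Bleo, 14 to 24 and 25 to 58 for bleomycin, and 66 to 116 and 2 to 4 for age. Fewer samples leave fewer splits that reach the threshold in Aged Sham and Young Bleo, where each of the 9 libraries moved both counts by over 1.5 times. In Aged Bleo the lower count was 56 without Young Sham 3, 77 without Young Sham 5, 72 without Aged Bleo 1 and 71 without Aged Bleo 2, and the higher count 2 without Young Sham 1, 6 without Aged Bleo 3, 16 without Aged Bleo 4 and 10 without Aged Bleo 5. For bleomycin the lower count was 21 to 24 without Young Sham 5, Young Bleo 3, any Aged Sham library or Aged Bleo 1, and the higher count 40 to 58 without Young Bleo 1 or 4 or Aged Bleo 3, 4 or 5. For age the lower count was 102 without Young Sham 5, 111 without Aged Bleo 1 and 116 without Aged Bleo 2, and the higher count 4 without Aged Sham 2. Strength gave 1 to 4 and 0 to 1 in Aged Sham, 0 to 5 and 2 to 5 in Young Bleo, 5 to 13 and 8 to 14 in Aged Bleo, 2 to 7 and 8 to 17 for bleomycin, and 4 to 15 and 0 to 4 for age. Strength counts moved by over 1.5 times in Aged Sham without Young Sham 1, 2, 4 or 5 or Aged Sham 3, in Young Bleo without Young Sham 1 to 4 or Young Bleo 1 or 2, in Aged Bleo without Young Sham 2 or 4, for bleomycin without Young Sham 1, 3 or 4, Young Bleo 1 or 2, Aged Sham 4 or Aged Bleo 1, 2 or 4, and for age without 13 of the 18 libraries in each direction. Shares ranged over 63.4% to 69.4% in Young Sham and in Young Bleo, 44.2% to 49.7% in Aged Sham and 46.6% to 58.2% in Aged Bleo. For the named regions, 646 of 706 presence values and 420 of 594 strength values kept direction and call, 60 and 173 lost the call, and 1 strength value reversed. Most of these values come from leaving out libraries. With the same number of peaks in every list, only 20 of the 35 named presence calls and 15 of the named strength calls had a value. Of these, 10 presence calls and 2 strength calls were lost, and the remaining named calls could not be compared in that setting. The depth of the libraries is not in the lists, and a missing peak does not show that a region was closed.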
